A study of Mus musculus with 24 samples.

Results

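Ucp1, Ucp2 and Ucp3 are the 3 genes that carry the name uncoupling protein in the mouse, and they were taken from the deposited expression tables by symbol. They are 3 of 13162 genes listed in any of the 5 tables, and all 3 were listed in every table. The tissue was interscapular brown adipose tissue of male mice aged 10 to 12 weeks, collected at ZT10, that is 10 h after lights came on. Control mice carried floxed Hdac3 on C57BL/6J, and the knockout (KO) mice carried the same floxed alleles together with Ucp1-cre, a Cre recombinase driven by the promoter of Ucp1 itself. Hdac3 encodes a histone deacetylase of the nuclear receptor corepressor complexes. Each genotype gave 4 libraries from mice kept at 22 °C, 4 from mice held at 15 °C for 24 h and then returned to 22 °C for 24 h, and 4 from mice returned to 22 °C for 7 d. These 6 groups make 24 libraries, and the comparisons ask what a short cold exposure leaves behind with and without Hdac3.

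Uncoupling proteins are carriers of the inner mitochondrial membrane. UCP1 lets protons return to the matrix without making ATP, so that respiration gives heat; long-chain fatty acids activate it and purine nucleotides inhibit it. It defines brown and beige adipocytes. UCP3 is found mainly in skeletal muscle, heart and brown fat and goes with fatty acid use, while UCP2 is widespread, with high levels in macrophages and lymphocytes; neither is known as a source of adaptive heat in brown fat. Transcription of Ucp1 is driven by beta-adrenergic signals, thyroid hormone and nuclear receptors that act largely through an enhancer farther upstream than the stretches shown here.

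Ucp3 and Ucp2 are next to each other on chromosome 7, in that order and in the same orientation, and Ucp1 is on chromosome 8. The 250 bases before each start site are shown because the genes differed in how they responded; capitals mark the nuclear receptor core motif AGGTCA (or TGACCT on the other strand) and TATA-like letters (TATATA, or TATAAA and its reverse TTTATA). They come from RefSeq on GRCm38.p6, while the reads were counted on mm9. The stretches are chr8:83290098-83290347 for Ucp1, chr7:100472741-100472990 for Ucp3 and chr7:100493108-100493357 for Ucp2, all on the plus strand and written 5′ to 3′.
Ucp1: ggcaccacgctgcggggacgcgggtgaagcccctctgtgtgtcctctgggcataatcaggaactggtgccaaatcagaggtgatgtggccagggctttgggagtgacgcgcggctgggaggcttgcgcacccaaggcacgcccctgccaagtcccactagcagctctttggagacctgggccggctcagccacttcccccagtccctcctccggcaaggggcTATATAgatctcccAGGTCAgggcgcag
Ucp3: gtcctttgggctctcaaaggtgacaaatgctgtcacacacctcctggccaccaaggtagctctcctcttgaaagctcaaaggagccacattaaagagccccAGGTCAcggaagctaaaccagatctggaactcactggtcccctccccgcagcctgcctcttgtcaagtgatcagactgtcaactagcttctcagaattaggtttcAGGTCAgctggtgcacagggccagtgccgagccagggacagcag
Ucp2: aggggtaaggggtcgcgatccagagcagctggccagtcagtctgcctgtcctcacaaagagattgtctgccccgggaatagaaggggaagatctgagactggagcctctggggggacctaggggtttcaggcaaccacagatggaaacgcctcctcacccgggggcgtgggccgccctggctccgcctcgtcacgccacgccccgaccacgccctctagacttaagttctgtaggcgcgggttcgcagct

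The Ucp1 stretch held TATATA once, at positions -28 to -23 before the start, and AGGTCA once, at -14 to -9. The Ucp3 stretch held AGGTCA 2 times, at -149 to -144 and -44 to -39, and no TATA letters. The Ucp2 stretch held neither. It had 16 CG dinucleotides against 12 in Ucp1 and 3 in Ucp3, where the median over 32851 promoters was 6, and 1 GC box (GGGCGG, read as CCGCCC) that the other members lacked. Of those promoters 4607 held AGGTCA on either strand at least once and 1.36% at least 2 times, 5.25% held TATATA, 12.4% TATAAA and 32.7% the GC box. The direct repeat of AGGTCA spaced by 1 base, a full site of the PPAR and RXR kind, was in none of the 3 stretches and in 0.0335% of promoters, and the E-box letters CACGTG were also in none. The cyclic AMP core letters TGACG or CGTCA, which overlapped no other match, occurred once in Ucp1 and once in Ucp2 and in 17.8% of promoters. These are letter matches, and no factor binding was measured.

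The values below are the authors' group means in RPKM, read counts scaled to gene length and library size, and their fold changes with adjusted p, called at 0.05. No value per library was used, so means stand without a spread; an error of each log2 fold change was rebuilt from the deposited p, and intervals are at 95%. The libraries are called biological replicates in the extraction protocol, but no label ties a library to 1 animal. Library totals, read from the steps of low means, ran from about 4637903 to 12538811 reads over the 24 libraries. Over all listed genes the median deposited log2 fold change lay between -0.05 and 0.01 in each of the 5 comparisons. Hdac3 averaged between 25.4 and 27.1 RPKM in the Control groups and between 6.43 and 8.57 in the KO groups in the authors' deposited tables, and the KO was lower at each time (adjusted p of 9.90e-21 at 22 °C, 4.65e-37 at 24 h and 6.42e-29 at 7 d). All 14 markers of brown adipocytes were listed in all 6 groups, with Cidea, a lipid droplet protein, between 433 and 1625 RPKM.

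Ucp1 was high in 5 groups and low in the KO kept at 22 °C. Its deposited mean was 1607 RPKM in Control and 32.8 RPKM in KO at 22 °C. It was 4966 in Control and 3884 in KO at 24 h of recovery, and 2948 and 2163 at 7 d. The KO mean at 22 °C was 49.1 times below the next lowest group, and the highest of the 6 means was 152 times the lowest. At the mean library totals these levels correspond to about 498 reads per library in the KO at 22 °C and between 19341 and 70941 elsewhere, so the low group is not at the limit of depth. By its mean RPKM and length, Ucp1 took 0.816% of the library total that scales RPKM in Control at 24 h and 0.00538% in KO at 22 °C. That total need not equal the reads counted on genes. Among all genes it had rank 2 by mean RPKM in Control at 24 h and rank 1172 of 12893 in the KO at 22 °C. Fewer cells that express a gene and less RNA per cell cannot be told apart in whole tissue.

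**Figure D1:**
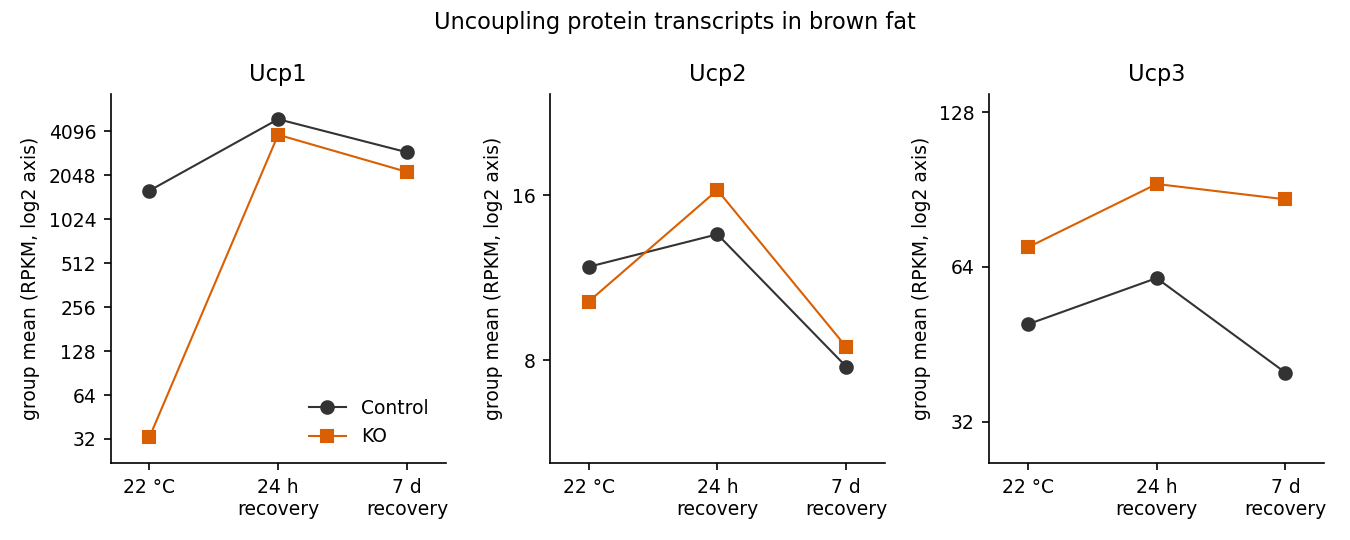
Group means in RPKM on a log2 axis for Ucp1, Ucp2 and Ucp3 at 22 °C, 24 h and 7 d of recovery; circles are Control and squares KO, each the authors' mean of 4 libraries with no error bar. Ucp1 is low in KO at 22 °C alone (32.8 RPKM), the KO means of Ucp3 lie above all its Control means, and Ucp2 is highest at 24 h in both genotypes.

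In the authors' deposited table Ucp1 was 41.9-fold lower in the KO at 22 °C (log2 fold change -5.39, rebuilt SE 0.43, edgeR adjusted p = 4.16e-33). At that time 34.3% of the 12710 listed genes were called, with 18% of the listed genes lower in the KO, and 17 genes had a lower log2 fold change than Ucp1. After 24 h of recovery the deposited log2 difference of KO from Control was -0.21, with an interval from -0.92 to 0.49 (edgeR adjusted p = 0.779; 18.5% of genes called, 7.96% as lower). After 7 d it was -0.38, from -1.09 to 0.32 (edgeR adjusted p = 0.578; 15.3% called, 6.14% as lower). These intervals leave room for a KO level down to 0.529 and 0.470 of Control, so equal levels are not shown. Hdac3 itself passed as lower in the KO at all 3 times, and Ucp1 at 22 °C.

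After the cold exposure Ucp1 rose in both genotypes in the deposited tables. In Control the rise at 24 h was 3.16-fold (log2 1.66, rebuilt SE 0.37, edgeR adjusted p = 1.42e-04), in a table where 21.8% of genes were called, 13.1% as higher and 8.67% as lower. In KO it was 114-fold (log2 6.84, rebuilt SE 0.46, edgeR adjusted p = 1.32e-46), where 41.9% were called, 22.1% as higher and 19.8% as lower, and 7 of 12577 genes had a larger log2 fold change. The 2 recovery comparisons share their 22 °C libraries with the comparison of genotypes at 22 °C, so the low KO mean there enters that comparison and the KO recovery.

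The change of the KO effect was tested as such, from the deposited fold changes and rebuilt errors across 10734 genes for 24 h against 22 °C, 10591 for 7 d against 22 °C and 10425 for 7 d against 24 h. For Ucp1 the KO effect at 24 h minus that at 22 °C was 5.18 on the log2 scale (SE 0.56, interval 4.07 to 6.28, adjusted p = 1.66e-17), and 12 genes had a larger one; 18.2% of genes were called, 10.8% with a positive and 7.39% with a negative difference. At 7 d minus 22 °C it was 5.00 (SE 0.56, interval 3.90 to 6.11, adjusted p = 3.93e-16; 14.8% called, 9.53% positive and 5.29% negative). Between 24 h and 7 d it was -0.17, from -1.17 to 0.83 (adjusted p = 1.000, where 0.201% of genes were called, 0.115% positive and 0.0863% negative). The same test gave no call for Ucp2 or Ucp3 at any pair of times. For Ucp3 the KO effect at 24 h differed from that at 22 °C by -0.0045 (interval -0.52 to 0.51), and the 7 d effect was larger than that at 22 °C by 0.45 (interval -0.07 to 0.96, adjusted p = 0.277). For Ucp2 these differences were 0.38 (-0.35 to 1.11) and 0.16 (-0.61 to 0.93).

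**Figure D2:**
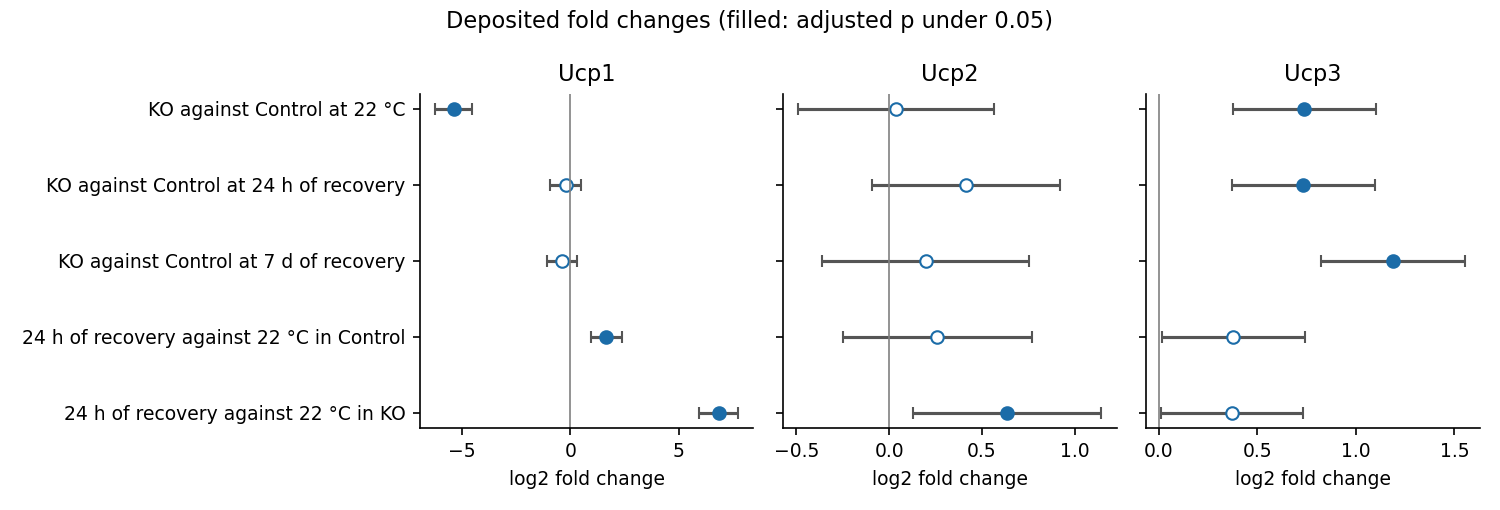
Deposited log2 fold changes of the 3 genes in the 5 comparisons, with 95% intervals rebuilt from the deposited p; filled points have an adjusted p under 0.05, and each panel has its own horizontal scale. Ucp1 is filled in 3 comparisons, Ucp3 in the 3 comparisons of KO with Control, and Ucp2 in the KO recovery alone.

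Ucp3, the muscle and brown fat member, was higher in the KO at every time. Its deposited means were 49.5 RPKM in Control and 69.9 RPKM in KO at 22 °C. They were 60.9 and 92.8 at 24 h of recovery, and 39.9 and 86.6 at 7 d. Every KO mean was above every Control mean, and at the mean totals each rests on between 728 and 1991 reads per library. In the authors' deposited tables the KO was 1.67-fold higher at 22 °C (log2 0.74, rebuilt SE 0.19, edgeR adjusted p = 4.10e-04), 1.66-fold at 24 h (log2 0.73, adjusted p = 0.00107) and 2.28-fold at 7 d (log2 1.19, adjusted p = 1.86e-08). Of all listed genes, 16.3%, 10.5% and 9.18% were called higher in the KO at these times. At 22 °C Ucp3 was thus higher in the KO, and Ucp1 lower.

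The recovery comparisons of Ucp3 did not pass the threshold in either genotype. The deposited log2 change at 24 h was 0.38 in Control (interval 0.02 to 0.74, edgeR adjusted p = 0.137). It was 0.37 in KO (interval 0.01 to 0.73, edgeR adjusted p = 0.0944). Intervals that leave out 0 beside an adjusted p above 0.05 are possible because the intervals are not adjusted for the number of genes. Skeletal muscle also expresses Ucp3. The summed mean RPKM of 19 of 20 muscle markers listed in all tables was 192 in Control and 174 in KO at 22 °C, 325 and 175 at 24 h, and 1016 and 834 at 7 d. None of those muscle markers was at 0 in a group. The direction of the muscle list at 22 °C turned with the normalization: the summed RPKM was lower in the KO, while the median deposited log2 fold change of its markers was 0.28. At 24 h and 7 d the medians of the same 19 markers were -0.80 and -0.21. In Control, Ucp3 had its lowest mean at 7 d, where the muscle sum was highest. In KO the muscle sum was also highest at 7 d. The KO mean of Ucp3 there, 86.6 RPKM, lay between those at 22 °C (69.9) and 24 h (92.8). Of the muscle list, 1 of 19 listed members, Des, which encodes the intermediate filament desmin, passed the test between genotypes at 22 °C, where it was lower in the KO and 34.3% of all listed genes were called, and none did at 24 h or 7 d. The part of muscle RNA in the Ucp3 values was not tested.

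Ucp2 was the least abundant of the 3 genes per unit length in all 6 groups. Its deposited means were 11.9 RPKM in Control and 10.2 RPKM in KO at 22 °C. They were 13.6 and 16.4 at 24 h, and 7.80 and 8.47 at 7 d, on about 91.6 to 226 reads per library. No comparison of KO with Control passed the threshold for Ucp2 in the deposited tables: the log2 fold changes were 0.04 (interval -0.49 to 0.56, edgeR adjusted p = 0.967) at 22 °C, 0.41 (-0.09 to 0.92, adjusted p = 0.294) at 24 h and 0.20 (-0.36 to 0.75, adjusted p = 0.767) at 7 d. The sign at 22 °C rests on the normalization, since the means themselves run the other way. By 24 h of recovery Ucp2 rose 1.55-fold in KO (log2 0.64, rebuilt SE 0.26, edgeR adjusted p = 0.0368), and the deposited log2 change in Control was 0.26 (-0.25 to 0.77, adjusted p = 0.551). The authors' own status column, which needs an adjusted p under 0.01 and a 1.5-fold change, does not mark the KO rise of Ucp2, and it marks each of the 6 calls for Ucp1 and Ucp3. Dnajb13, on the opposite strand and in no table, shares 305 exon bases with Ucp2 in the GENCODE M21 annotation. With a library kit that does not keep strand, reads of the pair cannot be told apart there.

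Macrophages and lymphocytes are rich in UCP2, so their markers are given beside it. The summed mean RPKM of 22 of 22 macrophage markers was 186 in Control and 228 in KO at 22 °C, 437 and 266 at 24 h, and 215 and 184 at 7 d. Between genotypes at 22 °C 3 of 22 passed as higher in the KO, Cd14, Lgals3 and Mpeg1, beside 16.3% of all listed genes. In Control at 24 h of recovery 18 of 22 passed as higher and 0 as lower, beside 13.1% and 8.67% of all listed genes. In the KO recovery 0 passed as higher and 1 as lower, beside 22.1% and 19.8%. Over the same interval Ucp2 passed in KO; its changes in KO and Control were not shown to differ. The median deposited log2 fold change of the 22 macrophage markers by 24 h of recovery was 1.09 in Control and 0.28 in KO. Those of Ucp2 were 0.26 and 0.64. Of 15 lymphocyte markers 8 were in no table, among them Cd4. Most of the 7 listed at 22 °C reached the listing minimum of 0.5 RPKM through the KO mean alone, so their number called is not read. Cd79b and Nkg7 were above that minimum in both groups there. Cd79b was at 0.901 RPKM in Control and 0.789 in KO, and Nkg7 at 0.972 and 2.28. The part of these cells in the Ucp2 values was not tested.

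**Figure D3:**
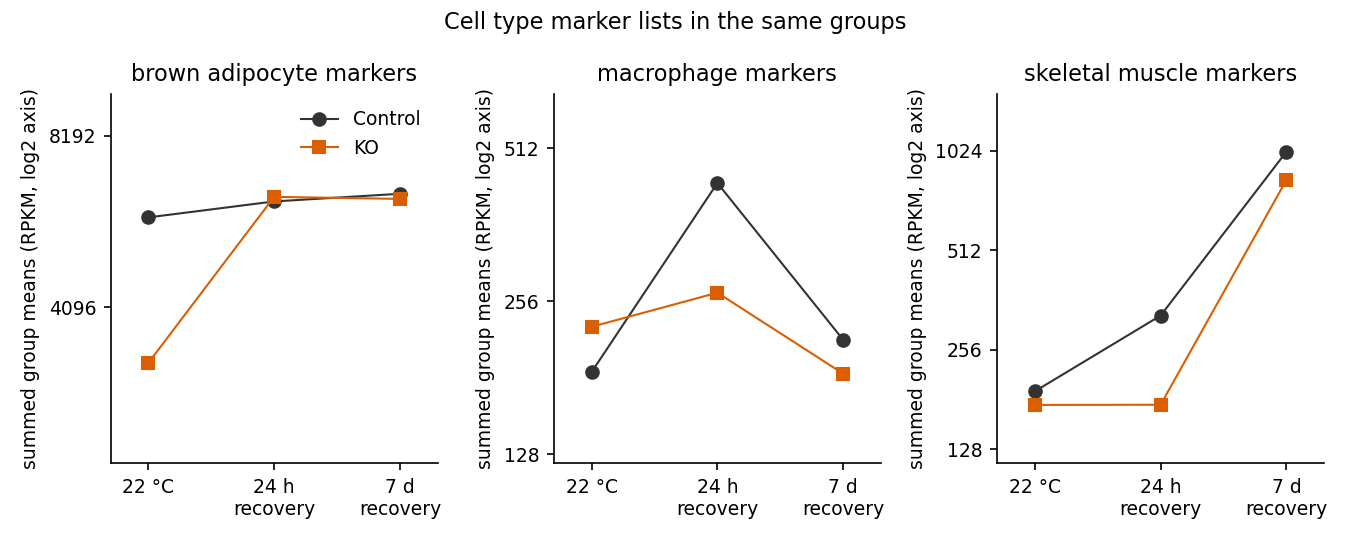
Summed group means in RPKM, on a log2 axis, of the marker lists for brown adipocytes (14 genes), macrophages (22) and skeletal muscle (19) in the 6 groups; circles are Control and squares KO. The brown adipocyte sum is lowest in KO at 22 °C (3269), the macrophage sum highest in Control at 24 h (437) and the muscle sums highest at 7 d (1016 and 834).

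Brown adipocyte markers moved in both directions in the KO at 22 °C. Of 14 markers, 9 were lower and 3 higher there, with a median log2 fold change of -1.43 against -0.01 over all listed genes, of which 18% were lower and 16.3% higher. Cox7a1, a cytochrome oxidase subunit, was lower in the KO, at 56.4 against 924 RPKM in the deposited table, and so was Kcnk3, a potassium channel that limits adrenergic signalling in brown fat, at 10.6 against 44.4. The general adipocyte genes Adipoq and Plin1, for the hormone adiponectin and a lipid droplet coat protein, were higher in the KO, at 1203 against 840 and 519 against 346 RPKM. Elovl3, a fatty acid elongase that cold induces, was also higher, at 30.2 against 3.57 RPKM. At 24 h and 7 d the median of the 14 markers was 0.01 and 0.07, with 3 higher and 2 lower at 24 h (10.5% and 7.96% of all listed genes) and 2 higher and 1 lower at 7 d (9.18% and 6.14%). White fat markers were listed for 8 of 11 genes, with 2 higher in the KO at 22 °C, Lep and Retn, which encode leptin and resistin, and 0 lower, beside 16.3% and 18% of all listed genes. At 24 h 4 of the 8 were higher in the KO, Lep, Retn, Nnat and Npr3, beside 10.5%, and at 7 d 0 passed. The white fat sums were 101 RPKM in Control and 259 RPKM in KO at 22 °C, 73.4 and 160 at 24 h, and 61.7 and 82.2 at 7 d. The part of white fat in the values of the uncoupling proteins was not tested.

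At 7 d the order of the Ucp1 means was the same as at 24 h, with Control above KO and both above Control at 22 °C. No deposited table compares 7 d with another time, so these are ratios of mean RPKM centred on the median of 11917 genes, with no test. For Ucp1 the 7 d level was above the 22 °C level by 0.99 on the log2 scale in Control and 5.99 in KO, higher than 97.5% and 99.99% of genes. Against 24 h the Ucp1 ratio was -0.69 in Control and -0.86 in KO. The errors of the deposited Ucp1 comparisons ran from 0.36 to 0.46, which gives a scale for these differences. Ucp2 at 7 d had log2 ratios to its 24 h level of -0.73 in Control and -0.96 in KO, and to its 22 °C level of -0.48 and -0.32, against errors of 0.26 to 0.28. Ucp3 at 7 d had log2 ratios to its 24 h level of -0.54 in Control and -0.11 in KO, against errors of 0.18 to 0.19. The 7 d Ucp3 mean of Control was below its 22 °C mean and that of KO above it, with centred log2 ratios of -0.20 and 0.26.

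Among the 3 genes Ucp1 supplied nearly all of the RPKM in 5 of the groups. It made up 96.3% of the summed RPKM of the 3 genes in Control at 22 °C, 98.5% and 97.3% in Control and KO at 24 h, and 98.4% and 95.8% at 7 d. In KO at 22 °C it made up 29.0%, and Ucp3 took 61.9% and Ucp2 9.07%. Ucp3 was there 2.13 times Ucp1 per unit length, while Ucp1 was 32.5 times Ucp3 in Control at 22 °C. The summed level of the 3 genes at 22 °C was 1668 RPKM in Control and 113 in KO. Ucp3 exceeded Ucp2 in every group, by 4.18 to 10.2 times.

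**Figure D4:**
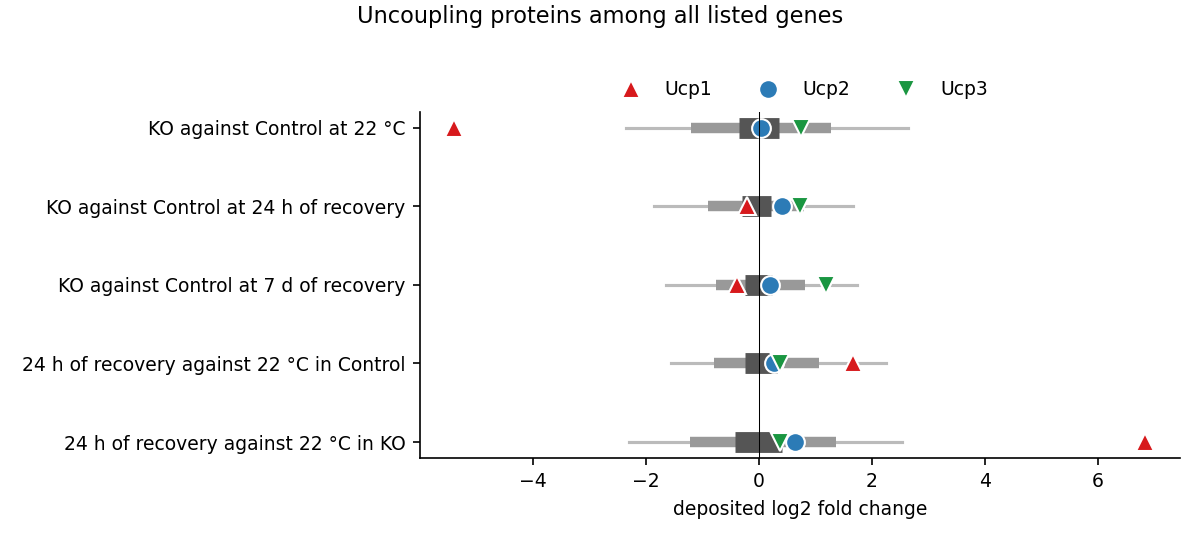
Deposited log2 fold changes of Ucp1 (upward triangles), Ucp2 (circles) and Ucp3 (downward triangles) against all listed genes in each comparison; dark bars span the middle 50% of genes, grey bars the 5th to 95th percentile and thin lines the 1st to 99th. Ucp1 lies outside the thin line in the KO against Control at 22 °C and in the KO recovery, at -5.39 and 6.84, and between the 95th and 99th percentile in the Control recovery, at 1.66.

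The genes with group profiles nearest to each member were found by the distance between centred log2 means over the 6 groups, among 10577 genes. For Ucp1 the nearest were Acot11, Perm1, Arhgdig, Cpn2 and Cox7a1, at distances of 1.52 to 2.32, with Pearson r of 0.94 to 0.98 over the 6 means. Acot11 is an acyl-CoA thioesterase of thermogenic fat and Perm1 a muscle regulator that works with ERR receptors. The deposited Acot11 means were 35.9 and 2.03 RPKM for Control and KO at 22 °C, and 145 and 62.3 at 24 h. Arhgdig is listed at 0 in KO at 22 °C. For Ucp2 the nearest were Lbh, Lcmt2, Cpt1a, Lgals4 and Lgals6, at 0.22 to 0.38. Cpt1a is the carnitine palmitoyltransferase found mainly outside muscle and brown fat. It rose 1.74-fold in KO and 1.56-fold in Control at 24 h in the deposited tables (edgeR adjusted p of 9.84e-04 and 0.0203). Lgals4 and Lgals6 are near-identical galectin genes whose shared reads may be split. For Ucp3 they were Clic4, Isg15, Trib1, Tspan15 and Prim1, at 0.30 to 0.35. Clic4, an intracellular channel-like protein, was higher in the KO at all 3 times, with deposited means of 54.8 and 72.8, 56.7 and 98.3, and 49.2 and 97.6 RPKM, and Isg15 passed the threshold at none. Ucp1 was far from both other members (rank 4796 for Ucp2 and 7645 for Ucp3 among the genes nearest to it). The 6 means share their libraries, and these likenesses are descriptions.

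**Figure D5:**
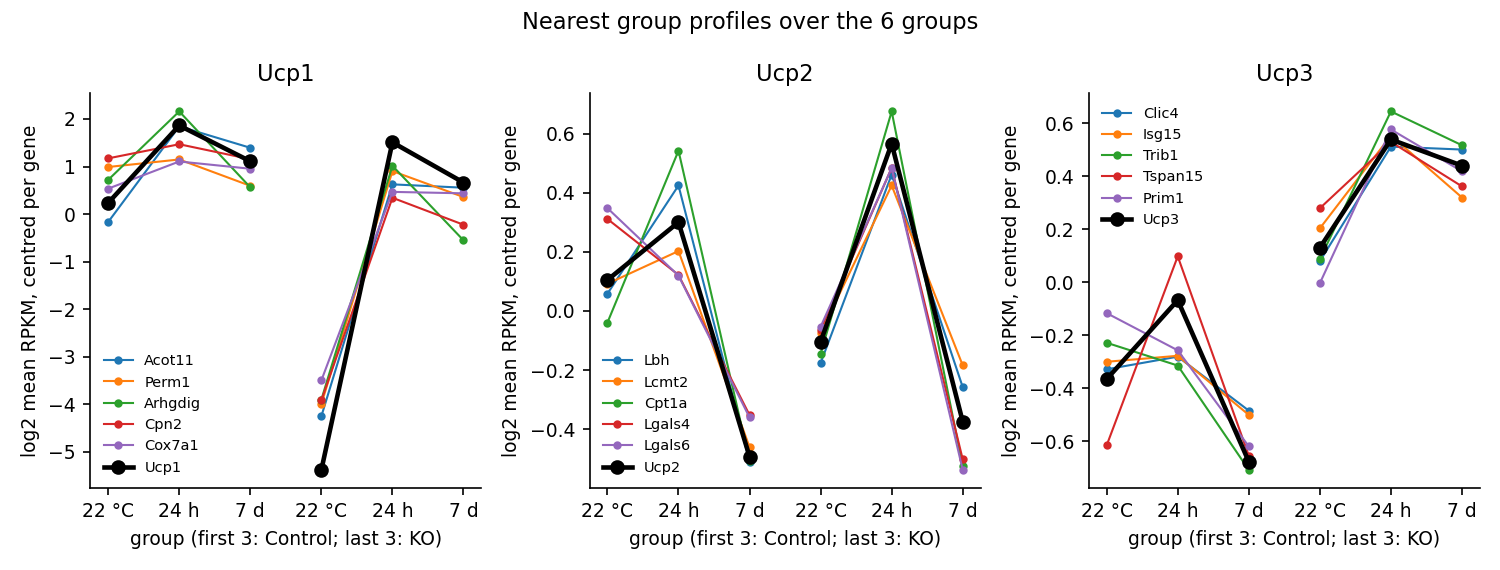
Log2 mean RPKM of each uncoupling protein (thick black) and its 5 nearest genes (colours) in the 6 groups, each gene centred on its own mean; the first 3 points of a panel are Control and the last 3 KO, at 22 °C, 24 h and 7 d, and each panel has its own vertical scale. The profiles were chosen for their likeness: those near Ucp1 have their lowest point in KO at 22 °C, and Clic4 and Tspan15 are the 2 near Ucp3 that passed as higher in KO at all 3 times.

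Relatives of the family and the ADP/ATP carriers, which can also leak protons, are given beside Ucp1. Of 7 such genes 6 were listed; Slc25a31, the testis ADP/ATP carrier, was in no table. Slc25a27 and Slc25a14, known as UCP4 and UCP5, had a highest group mean of 1.00 RPKM and 0.950 RPKM. In the deposited tables Slc25a27 passed in 1 comparison, at 1.00 RPKM in Control and 0.493 in KO at 7 d (edgeR adjusted p = 0.0422), and Slc25a14 in none. Slc25a30, a kidney-rich relative, was higher in the KO at 22 °C (4.62 and 8.26 RPKM, adjusted p = 6.26e-05 by edgeR) and at 7 d (3.92 and 7.60, adjusted p = 7.56e-04), and fell 2.49-fold in KO at 24 h of recovery. Slc25a4, the ADP/ATP carrier of muscle and heart, was at 341 RPKM in Control and 129 RPKM in KO at 22 °C in the deposited table (edgeR adjusted p = 2.44e-11) and at 402 and 289 at 24 h (adjusted p = 0.134). Slc25a5, the widespread ADP/ATP carrier, was at 253 and 242 RPKM at 22 °C (edgeR adjusted p = 0.323) and rose 1.91-fold in Control and 3.02-fold in KO by 24 h of recovery. In KO at 22 °C both ADP/ATP carriers thus had a higher mean RPKM than Ucp1. Slc25a42, the coenzyme A carrier, was 6.77-fold lower in the KO at 22 °C in the deposited tables. By 24 h of recovery it was 3.59-fold higher in KO than at 22 °C. In Control it fell 2.28-fold over that interval (39.0 to 16.3 RPKM, edgeR adjusted p = 1.49e-04).

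Regulators of Ucp1 transcription were listed for 26 of 28 genes and moved both ways. In the KO at 22 °C 6 of 26 were higher and 9 lower, beside 16.3% and 18% of all listed genes, with a median log2 fold change of -0.13. Among the lower were the coactivators Ppargc1a (8.59 and 2.64 RPKM) and Ppargc1b (16.5 and 4.92), the receptors Ppara (98.8 and 33.5) and Esrrg (5.95 and 0.993), and Ebf2, a factor of brown adipocyte identity (2.22-fold lower). Among the higher were the beta-adrenergic receptor Adrb3 (20.9 and 56.0 RPKM) and the Ucp1 corepressor Nrip1 (5.74 and 18.1), as deposited. So were the HDAC3 partner Ncor1 (21.2 and 33.6) and the transcription factor Irf4 (5.57 and 51.5). The receptor Rxra (10.6 and 26.1) and Cebpa, an adipocyte transcription factor (161 and 199), were higher too. Pparg, the master regulator of adipocytes, did not pass (169 and 158 RPKM, edgeR adjusted p = 0.546), nor did Prdm16, a coregulator of brown fat identity (3.42 and 2.09, adjusted p = 0.136).

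In the KO recovery at 24 h 11 of 26 regulators were higher and 7 lower, beside 22.1% and 19.8% of all listed genes, with a median log2 fold change of -0.03. Esrra, the main ERR receptor of brown fat, rose from 18.3 to 42.2 RPKM in the deposited table. Esrrg rose from 0.993 to 4.16 and Ppargc1a from 2.64 to 7.07. Nrip1 fell from 18.1 to 8.32 RPKM, Irf4 from 51.5 to 7.84 and Rxra from 26.1 to 12.3. Dio2, the deiodinase that activates thyroid hormone, rose from 7.03 to 71.0 RPKM in KO and from 11.5 to 46.1 in Control (edgeR adjusted p of 2.87e-06 and 0.00632). In Control, where Ucp1 also rose, 2 regulators were higher, Dio2 and Esrra, and 7 lower, beside 13.1% and 8.67% of all listed genes, among the lower Ppara, from 98.8 to 40.4 RPKM. At 24 h 6 were higher and 2 lower in KO than in Control (10.5% and 7.96% of all listed genes), and at 7 d 7 and 1 (9.18% and 6.14%). Ebf2 was lower at both times. Adrb3, Cebpa, Ppara, Nrip1 and Ncor1 were higher in KO than in Control at both.

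Fatty acids are the activators and fuel of UCP1, and all 25 genes of a list for their release, uptake, activation, mitochondrial entry and oxidation were in the tables. In the KO at 22 °C 7 were higher and 14 lower, beside 16.3% and 18% of all listed genes, with a median log2 fold change of -0.83. Acadl, Acadm, Acadvl, Hadha and Hadhb, enzymes of beta-oxidation, were 5 of the 14. Among the higher, the lipase Lpl was at 665 RPKM in Control and 2452 in KO, and hormone-sensitive lipase Lipe at 361 and 548. The fatty acid binding protein Fabp4 was at 8202 and 16522, and the fatty acid transport protein Slc27a1 at 70.8 and 215. Among the lower, Cpt1b, the muscle and brown fat carnitine palmitoyltransferase, was at 408 and 81.0 RPKM, the mitochondrial thioesterase Acot2 at 30.8 and 7.65, and Pdk4, a kinase that spares glucose, at 538 and 170. Genes of fatty acid uptake and activation went both ways, with Fabp3, Slc27a2 and Acsl5 lower (log2 fold changes of -4.21, -1.14 and -0.90), and the uptake receptor Cd36 and the lipase Pnpla2 did not pass (0.07 and 0.35). In the KO recovery at 24 h 20 were higher and 2 lower (median 1.41), beside 22.1% and 19.8% of all listed genes. Fabp3, a fatty acid binding protein, rose from 26.0 to 986 RPKM. The lower were Slc27a1, from 215 to 85.8 RPKM, and Lipe, from 548 to 447. At 24 h and at 7 d 10 were higher and 2 lower in KO than in Control, where 10.5% and 7.96% of all listed genes were at 24 h and 9.18% and 6.14% at 7 d.

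The 12 nearest listed coding neighbours, taken from the order of genes in RefSeq on GRCm38.p6, had 1 higher and 3 lower in the KO at 22 °C, a share near that of all listed genes (16.3% higher and 18% lower). Next to Ucp1, Elmod2, which encodes a GTPase activator, was higher in the KO at all 3 times: its deposited means were 9.19 RPKM in Control and 25.9 RPKM in KO at 22 °C, 8.05 and 22.6 at 24 h, and 8.08 and 16.9 at 7 d (edgeR adjusted p of 1.18e-16, 1.05e-13 and 9.08e-07). Rnf150, a ring finger gene on the other side of Ucp1, was lower in the KO at all 3 times, at 3.76 and 0.788, 3.26 and 1.26, and 2.78 and 1.10 RPKM. The closest gene on that side, Tbc1d9, did not differ past the threshold between the genotypes (0.730 and 0.827 RPKM at 22 °C). Every KO library carries Ucp1-cre and no Control library does, and how much of the Ucp1 locus the transgene holds is stated in none of the sources used, so loss of Hdac3 and presence of the transgene cannot be told apart for genes at this locus. Beside Ucp3 and Ucp2, C2cd3, Ppme1, Coa4 and Rab6a passed in none of the 5 comparisons. Mrpl48, a mitochondrial ribosomal protein gene there, was at 29.2 RPKM in Control and 12.6 RPKM in KO at 22 °C (edgeR adjusted p = 5.50e-10).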

How the data were processed

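Brown fat RNA was depleted of ribosomal RNA and made into TruSeq RNA v2 libraries, per the labels' protocols; this kit does not mark strand. The submitters' processing notes name STAR, featureCounts, edgeR and mm9; settings, and which edgeR test was run, are not given in the sources used here. Per the file headers, each of 5 deposited tables holds the authors' log2 fold change (second-named group over first), the average log2 CPM, an unadjusted and an adjusted p-value, gene length and 2 group means. The deposited means carry no unit and were read as RPKM, because length times mean, on the log2 scale, tracked the deposited average log2 CPM with a steady offset (median -0.51, quartiles -0.54 and -0.50). Genes whose higher mean is under 0.5 RPKM are in no table, while the authors' adjustment covered 13414 genes.

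With no library values, the authors' adjusted p at 0.05 gave each call. Errors were computed as the log2 fold change over the normal score of its p (pandas 2.3.3, scipy 1.17.1). The difference of 2 KO effects was divided by its combined error, for genes with p up to 0.9, with a two-sided normal p and Benjamini-Hochberg adjustment over all such genes. Tested on simulated data for the difference between 24 h and 22 °C (12295 genes), it called 49 of 50 differences of 5 log2 units, 42 of 48 of 3, 35 of 49 of 2 and 17 of 47 of 1, and 10 of 11178 unchanged genes. Ratios at 7 d used a pseudocount of 0.1 RPKM. Between genotypes, log2 ratios of means minus deposited log2 fold changes had a median of -0.23 at 22 °C and -0.14 at 24 h, and a size under 0.1 in the other tables. Library totals came from the steps of low group means, which are multiples of 1 read (86.4% to 94.6% of the steps matched, by group), so they are estimates.

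The members and the 8 gene lists were chosen with earlier results of these data known. Genes named were the members, Hdac3, the 5 nearest profiles of each member (highest mean at least 1 RPKM, predicted loci and small RNAs left out), 3 listed coding neighbours on each side, all family relatives, and up to 4 members per list and comparison with the smallest p; some that this names are left out. Cidea, Kcnk3, Adipoq, Plin1, Elovl3, Ppargc1a, Ppargc1b, Ebf2, Adrb3, Pparg, Prdm16, Dio2, Lipe, Fabp4, Acot2, Pdk4, Ncor1, Nrip1, Esrra, Cebpa, the beta-oxidation enzymes, Fabp3, Slc27a2, Acsl5, Cd36 and Pnpla2 are also named in comparisons where that rule does not reach them, after their values were seen. The same goes for Irf4, Ppara and Slc27a1. Adgre1 was matched by its older symbol.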

Additional observations from a re-analysis of the deposited data

Results flagged for a closer look

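The effect of the KO on Ucp1 differed between times by the test of the difference itself. The KO effect at 24 h of recovery minus that at 22 °C was 5.18 on the log2 scale (adjusted p = 1.66e-17), from KO effects of -5.39 and -0.21. The KO effect at 7 d minus that at 22 °C was 5.00 (adjusted p = 3.93e-16), from -5.39 and -0.38. Both rest on the same 22 °C libraries, among which the deposited tables give no spread, so whether all 4 KO libraries at 22 °C were low was not analysed here. Summed marker means in Control and KO at 22 °C were 192 and 174 RPKM for muscle, 186 and 228 for macrophages, 101 and 259 for white fat and 5886 and 3269 for brown adipocytes. Their part in the Ucp1 difference was not tested.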

How the results depend on the processing

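No paired analysis was possible because the deposited tables hold group means and comparisons without library values, and for the same reason no replicate could be left out. Of 111 alternative values for the members' 36 results, 109 kept their direction and side of the threshold, or moved by less than the rebuilt error. The other 2 were for Ucp3 in KO against Control at 22 °C, where the log2 ratio of means without centring was 0.50 with a pseudocount of 0.1 and 0.49 with 1, against 0.74 as deposited. Values adjusted over other sets of genes keep the same log2 value, so their direction could not change. Ratios of means have no adjusted p, so for them no side of a threshold was checked. At an adjusted p of 0.01 in place of 0.05, the genes called fell from 2342 to 1405 and from 1910 to 1205 for KO against Control at 24 h and 7 d, and from 2795 to 1711 for the Control recovery. Of the 5 genes nearest to each member, 2, 4 and 3 for Ucp1, Ucp2 and Ucp3 were shared with a pseudocount of 1, and 0, 3 and 0 with Pearson correlation in place of distance. Ucp2 rests on the fewest reads, and its intervals leave room for KO differences of up to 0.92 log2.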
